A study of Mus musculus with 24 samples.

Results

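The change in H3K27me3 from XX progenitor cells to pregranulosa cells was described by comparing the H3K27me3 regions of both populations over chromosomes 1 to 19. XX progenitor cells were FACS-sorted at E10.5 from female gonads carrying SF1-eGFP, and pregranulosa cells, which the labels call granulosa cells, were FACS-sorted at E13.5 from female gonads carrying TESM-CFP. Both were on a mixed C57BL/6 and CD1 background with no mutation beyond the reporter. The reporters differ between the stages. SF1-eGFP reports the Nr5a1 promoter, which is active in somatic cells of the early gonad, and the TESM-CFP reporter is driven by a mutated Sox9 enhancer. Chromatin came from pooled gonads, was cut with MNase and was immunoprecipitated without crosslinking, with total H3 as the control. Each population had 2 replicates. The methods describe peak calling on single replicates, but the deposited lists were made from both replicates together, as the series description states, so each population is 1 list here. No spread between replicates can be computed and no test compares the stages. The 95% exact (Clopper-Pearson) binomial intervals given in parentheses cover counting error only.

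Overlapping peaks of a list were joined into regions. On these chromosomes 38307 peaks of the XX progenitor list became 7805 regions. The 10939 peaks of the pregranulosa list did not overlap one another, so joining left them unchanged. A region was lost when no E13.5 region shared 1 bp with an E10.5 region, gained when no E10.5 region shared 1 bp with an E13.5 region, and kept otherwise. The comparison held 18744 regions, 7805 at E10.5 and 10939 at E13.5, of the 207961 regions in the 8 lists of the series. A promoter was the window of 2 kb on either side of the annotated 5' end of a gene, 4001 bp in all, on mm9 (NCBIM37) with the GENCODE M1 annotation, for 21418 protein-coding genes. A gene was at a lost region when its window met a lost region and no E13.5 region, and at a gained region in the opposite case.

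H3K27me3 is laid down by Polycomb repressive complex 2 on genes that are kept silent or poised, often at CpG-rich promoters of developmental regulators, where it can lie together with H3K4me3, the mark of active or poised promoters. Complexes of the PRC1 type, which include CBX2, bind it and compact the chromatin. The supporting cells of the early gonad can become either Sertoli or pregranulosa cells. In the XX gonad, Wnt4 and Rspo1 signalling through beta-catenin and the factor FOXL2 drive the pregranulosa fate.

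The promoter sequences of 4 genes at lost regions and 2 at gained regions are shown to let the base composition of both classes be seen, together with a stretch of a gained region far from genes. They were chosen after the classes were known. Each promoter sequence is the 200 bases before the TSS on the strand of the gene, read from mm9, and overlaps no annotated exon. Capitals mark CpG dinucleotides. The lost promoters are Wnt4 at chr4:136833204-136833403 (plus strand), Rspo1 at chr4:124663474-124663673 (plus strand), Lhx9 at chr1:140745154-140745353 (minus strand) and Nr5a1 at chr2:38570063-38570262 (minus strand).
Wnt4: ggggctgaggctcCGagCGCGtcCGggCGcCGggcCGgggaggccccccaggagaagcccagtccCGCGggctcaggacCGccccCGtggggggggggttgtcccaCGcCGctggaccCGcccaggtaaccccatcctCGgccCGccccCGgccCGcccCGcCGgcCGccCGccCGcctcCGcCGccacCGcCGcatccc
Rspo1: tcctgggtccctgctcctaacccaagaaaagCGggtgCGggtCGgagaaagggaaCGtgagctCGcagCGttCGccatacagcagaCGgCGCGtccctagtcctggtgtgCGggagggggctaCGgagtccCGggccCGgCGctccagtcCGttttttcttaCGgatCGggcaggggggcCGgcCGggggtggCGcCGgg
Lhx9: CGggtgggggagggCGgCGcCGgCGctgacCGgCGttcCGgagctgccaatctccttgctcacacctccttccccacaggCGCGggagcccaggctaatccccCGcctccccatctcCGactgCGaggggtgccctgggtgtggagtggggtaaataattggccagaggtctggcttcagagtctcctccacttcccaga
Nr5a1: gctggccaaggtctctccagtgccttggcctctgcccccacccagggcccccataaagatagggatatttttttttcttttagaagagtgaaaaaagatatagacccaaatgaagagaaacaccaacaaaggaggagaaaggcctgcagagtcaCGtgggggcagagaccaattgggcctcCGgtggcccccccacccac
The gained promoters are Fzd1 at chr5:4758217-4758416 (minus strand) and Nr2f2 at chr7:77511622-77511821 (minus strand). The distal stretch is the centre, at chr1:92339549-92339748 (plus strand), of the widest gained region that lay more than 2 kb from any annotated gene, a region of 90483 bp on chromosome 1.
Fzd1: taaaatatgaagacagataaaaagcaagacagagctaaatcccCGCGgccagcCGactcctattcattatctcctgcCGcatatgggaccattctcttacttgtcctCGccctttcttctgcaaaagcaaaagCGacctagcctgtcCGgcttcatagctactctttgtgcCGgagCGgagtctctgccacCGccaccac
Nr2f2: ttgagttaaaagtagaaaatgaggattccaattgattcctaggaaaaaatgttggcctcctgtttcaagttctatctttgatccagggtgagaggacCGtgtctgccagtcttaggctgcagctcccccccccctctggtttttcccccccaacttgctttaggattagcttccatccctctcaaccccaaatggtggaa
Distal gained region: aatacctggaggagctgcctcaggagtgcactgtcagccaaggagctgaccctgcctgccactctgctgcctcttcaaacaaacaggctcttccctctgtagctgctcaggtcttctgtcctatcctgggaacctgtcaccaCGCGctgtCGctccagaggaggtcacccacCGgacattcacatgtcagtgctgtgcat
The stretches before Wnt4 and Rspo1 held 27 and 22 CpG dinucleotides, and that before Lhx9 held 13. Nr5a1 had 2, Fzd1 had 10, Nr2f2 had 1 and the distal stretch had 4. The first 3 lost promoters were thus denser in CpG than the other 4 stretches.

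Of the 7805 regions of XX progenitor cells, 6133 (78.6%, 77.7–79.5) were kept and 1672 (21.4%, 20.5–22.3) were lost. Of the 10939 regions of pregranulosa cells, 6053 (55.3%, 54.4–56.3) met an E10.5 region and 4886 (44.7%, 43.7–45.6) were gained. Covered sequence went from 82.2 Mb to 129.8 Mb, a ratio of 1.58. At E13.5, 78.1% of the bases covered at E10.5 were still covered, whereas 49.5% of the bases covered at E13.5 had been covered at E10.5. The lost regions held 12.03 Mb and the gained regions 47.02 Mb. On single chromosomes, the lost share ran from 17.3% on chromosome 7 to 25.8% on chromosome 16, and the gained share from 37.5% on chromosome 11 to 53.1% on chromosome 3.

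Lost regions were the narrowest class, with a median width of 6254 bp, and 784 of them (46.9%) were 5001 bp wide, the width of a single HOMER peak. Kept regions had a median of 8794 bp at E10.5 and 10122 bp at E13.5. Gained regions had a median of 7559 bp, and 355 of them were at least 20 kb wide, against 23 of the lost regions. Within kept regions the listed regions also covered more sequence at E13.5. The pregranulosa peaks were deposited without overlaps, so a difference in how the lists were made cannot be told apart from stage here. Over the 6133 kept E10.5 regions, the E13.5 regions they met had a summed width of 1.18 times their own at the median, and 4334 (70.7%) met wider ones. Only 173 kept E10.5 regions met more than 1 E13.5 region, and 228 E13.5 regions met more than 1 E10.5 region.

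Few regions lay near the 1 bp rule. Of the kept E10.5 regions, 9 shared less than 500 bp with E13.5 regions, and 5973 (97.4%) were covered over more than 0.5 of their length. Of the lost regions, 21 lay less than 1000 bp and 134 (8.01%) less than 5000 bp from an E13.5 region, and 27 and 261 (5.34%) of the gained regions lay as close to an E10.5 region. The XX progenitor list was called from 33185400 tags, while the depth and settings of the pregranulosa list are unknown because it carries no header. Depth and stage therefore cannot be told apart, above all in the number of gained regions. When the pregranulosa list was cut to its 7805 widest regions, the lost and gained counts were 2647 and 2807. Lists of equal number give close counts when most kept regions pair 1 to 1. Their closeness therefore says nothing about the balance of loss and gain. The cut also removed narrow regions from the E13.5 list alone.

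**Figure D1:**
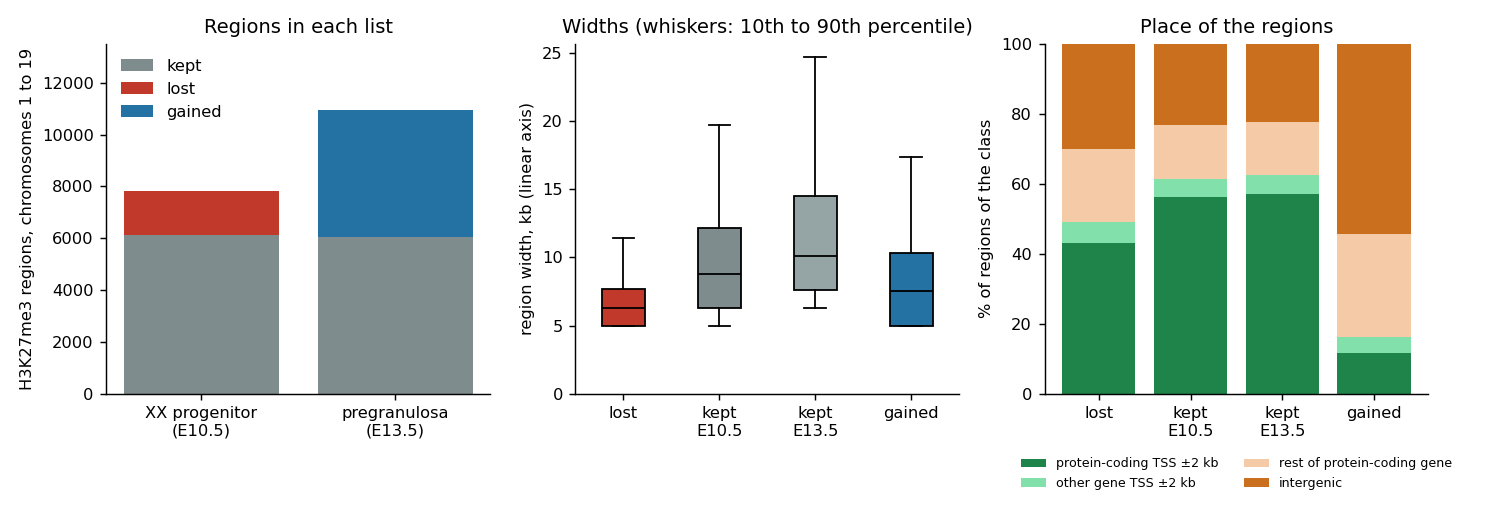
Left, the number of H3K27me3 regions in the XX progenitor (E10.5) and pregranulosa (E13.5) lists, split into kept, lost and gained. Centre, region widths in kb, with boxes for the quartiles, lines for the median and whiskers for the 10th and 90th percentiles. Right, the share of each class at protein-coding TSS windows, other TSS windows, the rest of protein-coding genes and intergenic sequence. Gained regions, 4886 in number, were mostly intergenic, and of the 1672 lost regions 43.2% met a protein-coding TSS window.

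The place of the regions differed between the classes more than their width. A protein-coding promoter window was met by 43.2% (40.8–45.6) of the lost regions and 56.2% (54.9–57.4) of the kept E10.5 regions, but by 11.6% (10.7–12.6) of the gained regions. Gained regions were intergenic in 54.2% (52.8–55.6) of cases and elsewhere in a protein-coding gene in 29.6% (28.3–30.9). For lost regions these shares were 30.1% (28.0–32.4) and 20.8% (18.8–22.8). The median distance to a protein-coding TSS was 58.8 kb for gained regions and 6.61 kb for lost regions, and 53.7% of the kept E10.5 regions contained one. At protein-coding promoter windows the lost regions, 722 in number, outnumbered the 568 gained ones, although gained regions were the larger class over the genome.

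Base composition followed the same order. The ratio of observed to expected CpG dinucleotides over whole regions had a median of 0.280 in lost regions, 0.293 in kept E10.5 regions and 0.205 in gained regions, against 0.194 for the sequence of chromosomes 1 to 19 as a whole. The median G+C share was 48.1% in lost and 45.0% in gained regions, and 41.9% over those chromosomes. In promoter windows alone, the CpG ratio was 0.446 at lost regions, 0.444 where the mark was present at both stages, 0.329 at gained regions and 0.329 where it was at neither stage. The median G+C share of these windows was 51.2% at lost regions, 52.2% at both stages, 48.8% at gained regions and 46.9% at neither stage. The gained promoters thus had the median CpG ratio of the unmarked ones but a higher median G+C share.

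**Figure D2:**
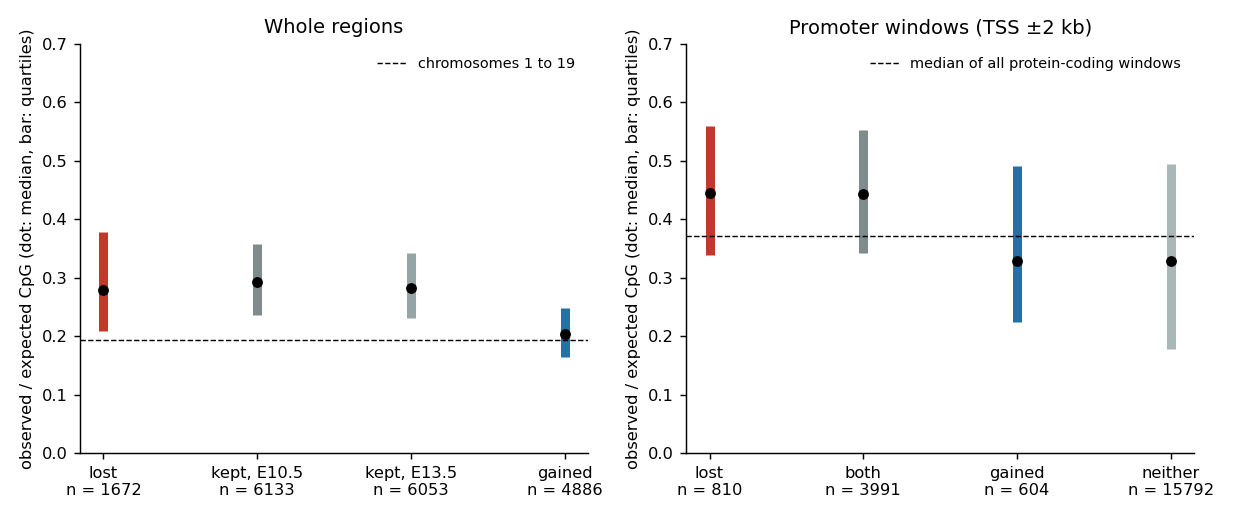
Observed over expected CpG ratio of whole regions (left, by class) and of 4001 bp promoter windows (right, by class), with dots for medians and bars for quartiles. Dashed lines give the ratio of chromosomes 1 to 19 (0.194) and the median of all protein-coding windows (0.371). The gained class has the lowest median ratio of the region classes, and lost and kept regions lie close together.

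Short motifs in the 250 bases before the TSS were counted on both strands. GGGCGG, a site of Sp family factors, was present in 59.5% of promoters at lost regions, 54.3% of those marked at both stages and 42.1% of those at gained regions, against 39.9% of all promoters. CTTTGA, the core bound by Tcf and Lef factors of the Wnt pathway, was in 8.89% of promoters at lost and 15.2% at gained regions, against 13.3% of all. CAAGGTCA, bound by SF1, the product of Nr5a1, was in 1.73% at lost and 1.16% at gained regions, and 1.18% of all. CCAAT was in 33.1% of both groups and 34.7% of all, and AGATAA, bound by Gata factors, in 7.04%, 7.78% and 9.18%. G+C content differs between the groups, and its part in these shares was not tested.

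Among the 21418 protein-coding promoters, 4894 (22.8%) had H3K27me3 at E10.5 and 4723 (22.1%) at E13.5, so that their number stayed close while the number of regions went up. The mark was present at both stages at 3991 promoters. A lost region was at 810 promoters, which is 3.78% of all promoters and 16.6% of those marked at E10.5. A gained region was at 604 promoters, 2.82% of all and 3.66% of those unmarked at E10.5. A further 93 promoters lost cover and 128 acquired it inside kept regions. With the longer list cut to the number of the shorter, promoters at lost and at gained regions numbered 1363 and 362. The balance of lost and gained promoters and the shares used for comparison thus rest on lists of unequal number. Of these, the E13.5 list has no known depth. The 810 promoters belonged to 721 regions and the 604 to 565, so promoters that share a region are not independent. At lost regions, a median of 3900 bp of the window was covered at E10.5, and at gained regions 3885 bp at E13.5.

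Promoters of the ovary pathway list were at lost regions in a higher share than marked promoters as a whole. The members were chosen with earlier results of these data known. The paper had named Wnt4, Rspo1 and Foxl2 among them for reduced H3K27me3 in pregranulosa cells. The share therefore describes this list and is not independent of these data. Of 24 measured members of a list of pregranulosa and ovary pathway genes, 19 were marked at E10.5 and 8 of these were at lost regions (42.1%, 20.3–66.5), beside 16.6% over all promoters marked at E10.5. The marked members included Znrf3, a Wnt repressor, which was not at a lost region. All 8 members at lost regions had H3K4me3 at E13.5. Among them were genes of ovary signalling. Wnt4, the ligand that starts the ovarian programme, lies at chr4:136833404-136855641, and Rspo1, which strengthens Wnt signals at the receptor, at chr4:124663674-124686343. The promoter windows of both were covered over all 4001 bp at E10.5 and over 0 bp at E13.5, by regions 11841 bp and 12920 bp wide. Bmp2, a ligand expressed by the fetal ovary, went from 4001 bp to 0 bp. Axin2, a feedback target of beta-catenin, had 1361 bp covered by a region of 5001 bp at E10.5 and 0 bp at E13.5. Axin2 was thus the least covered of the 8 at the earlier stage.

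The other lost members were a transcription factor, a growth factor, a cell cycle inhibitor and a G protein subunit. Lhx9, a LIM homeobox factor needed to form the gonad, lay in a lost region of 24414 bp and went from 4001 bp to 0 bp. Gng13 also went from 4001 bp to 0 bp. Kitl, the ligand through which supporting cells sustain germ cells, went from 3521 bp to 0 bp. Cdkn1b, which encodes the inhibitor p27 that marks non-dividing pregranulosa cells, went from 3121 bp to 0 bp. Emx2, a homeobox factor of the urogenital ridge, lost all 4001 bp inside a region of 31723 bp that was kept by the 1 bp rule.

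The primer pairs that the study designed for ChIP-qPCR show which parts of these promoters the lists cover. Of 17 pairs, 16 matched a single place on mm9 exactly. The amplicons of Wnt4 at chr4:136832568-136832667, Rspo1 at chr4:124663348-124663481 and Bmp2 at chr2:133378790-133378978 lay in lost regions, and that of Fzd1 at chr5:4755427-4755555 in a gained region.
Wnt4: forward cgtgggagaagtaataaaagaa, reverse cttaggaactggaaggctgtg
Rspo1: forward gaaactggtcagatgctc, reverse acccaggatgcttgctaa
Bmp2: forward gacttcttgaacttgccg, reverse tgttgcttttcttcgcctcc
Fzd1: forward acacgcacatacacatacacct, reverse ttcctcgccagccactga
The Axin2 amplicon lay in no region of either list, as did that of Gapdh, and the other 10 placed amplicons met regions of both lists. Of these, 9 lay wholly inside them, among them those of Foxl2, Lef1, Lgr5, Wnt5a and Dmrt1, while 63 bp of the 206 bp amplicon of Fst lay in the E13.5 region.

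Not every gene of the ovary pathway lost the mark. Foxl2, the factor that maintains granulosa identity, was covered over 4001 bp at both stages, by regions of 40185 bp and 35320 bp, and H3K4me3 covered the same window at both stages. The lists hold no signal height, so a local decrease inside a listed region, at Foxl2 or elsewhere, cannot be seen in them. For Foxl2 the paper reports such a decrease in pregranulosa cells, at the TSS and over the gene body, which its own promoter window did not show. Irx3, Irx5, Msx1 and Wnt2b were likewise covered over 4001 bp at both stages. Fst, which encodes the activin inhibitor follistatin, went from 4001 bp to 1284 bp. Lef1 and Lgr5, a transcription factor and a receptor of the Wnt pathway, went from 4001 bp to 3635 bp and 3816 bp. For Lef1 the paper reports removal of H3K27me3 from the TSS in pregranulosa cells. The E13.5 region listed here, chr3:130807501-130815023, spans that TSS, and the reason for the difference was not tested. Esr2, an estrogen receptor, had 3925 bp and 4001 bp, but with lists of equal number its cover fell by 3925 bp. Znrf3, which removes Wnt receptors from the cell surface, went the other way, from 2800 bp to 4001 bp. Its region widened from 5001 bp to 34366 bp. The paper names ZNRF3 as at least a partial repressor of Wnt signalling in XY gonads. The Znrf3 promoter window met no H3K27me3 region of the Sertoli list. Znrf3 is thus not an ovary-promoting gene that kept the mark, although the ovary pathway list counts it.

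Of the 5 members unmarked at E10.5, 4 were at gained regions (80.0%, 28.4–99.5), beside 3.66% over all unmarked promoters. Fzd1, a Wnt receptor, and Nr2f2, a nuclear receptor of interstitial cells, went from 0 bp to 4001 bp. Figla, an oocyte factor, went from 0 bp to 2655 bp and had no H3K4me3 in any of the 4 populations. Runx1, a factor of fetal supporting cells, went from 0 bp to 1091 bp at the annotated 5' end of the gene, where there was no H3K4me3 either. Runx1 has further transcript starts, and the largest cover over the windows of all its starts fell by 652 bp from E10.5 to E13.5, so its direction depends on the promoter chosen. Ctnnb1, the gene of beta-catenin, had no H3K27me3 at either stage.

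Genes of the Sertoli and testis pathway were taken next. Of 23 measured members, 16 were marked at E10.5, and 13 of these were marked at both stages. The 3 at lost regions were 18.8% (4.05–45.6) of the marked members, near the 16.6% of all promoters marked at E10.5. This interval overlapped that of the ovary pathway list (20.3–66.5). Sox9, Dmrt1, Sox8, Sox10, Dhh, Cyp26b1, Gdnf, Erbb4, Pdgfa and Tesc, which cover the core male factors and several secreted signals and receptors, were covered over 4001 bp at E10.5 and at E13.5. Fgf9, the growth factor that opposes Wnt4, went from 3044 bp to 4001 bp. The region at Sox9 widened from 15336 bp to 26544 bp and that at Dmrt1 narrowed from 15434 bp to 8874 bp. Cbx2 itself went from 3378 bp to 2665 bp, but its direction depends on the regions kept, with a change of 2665 bp among the widest 75% of each list and of -3378 bp with lists of equal number. Inhbb, an inhibin and activin subunit, went from 4001 bp to 2209 bp.

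The 3 members at lost regions, Gata4, Nr5a1 and Wt1, are factors of the gonad of both sexes. All 3 went from 4001 bp to 0 bp, in regions of 73461 bp, 21706 bp and 18375 bp, and H3K4me3 was present at both stages. The Gata4 region was the widest of all lost regions. Amh, the hormone that removes the Müllerian ducts in males, was at a gained region that also met the promoter of its neighbour Jsrp1 and covered 725 bp of the Amh window, from 0 bp. Aard, Clu, Cst9, Fgfr2, Hsd17b3 and Ptgds had no H3K27me3 at either stage.

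Markers of the cell types that a sort could hold were examined by the marks at their promoters. At E13.5, H3K4me3 without H3K27me3 was found at 7 of 10 supporting cell markers, 2 of 5 germ cell markers, 1 of 5 endothelial markers and 0 of 5 markers each of Sertoli cells, blood, mesonephric epithelium and stroma. This state was common. Of all 21418 promoters, 9312 had H3K4me3 at E13.5 and H3K27me3 at neither stage. The 7 supporting cell markers, Wnt4, Rspo1, Nr5a1, Gata4, Wt1, Lhx9 and Emx2, were already described above as losing the mark. Of the supporting cell markers, 9 had H3K27me3 at E10.5 and 3 at E13.5. The stromal markers went from 2 with H3K27me3 to 5 and the Sertoli markers from 3 to 4, while all 5 mesonephric markers were marked at both stages. The part of a changing mix of cells in the lost and gained regions was not tested, and a mark carried by a fraction of the cells cannot be told apart from a weaker mark in all of them.

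Lists of Wnt genes held both lost and gained promoters. Their lost shares were 11.1% of marked ligands, 14.3% of receptors and R-spondins and 22.2% of antagonists and effectors, near the 16.6% of all marked promoters. Of 18 Wnt ligands marked at E10.5, 15 were marked at both stages and 2, Wnt4 and Wnt5b, were at lost regions. Wnt6 lost cover inside a kept region, and Wnt8b was at a gained region, from 0 bp to 3962 bp. Of 24 Wnt receptors and R-spondins, Rspo1 and Fzd3 were at lost regions and Fzd1, Fzd4, Fzd7 and Ror1 at gained regions, that is 4 of the 10 that were unmarked at E10.5 (40.0%, 12.2–73.8), beside 3.66% of all unmarked promoters. Fzd7 and Ror1 went from 0 bp to 4001 bp, the former in a region of 27159 bp. Of 18 marked Wnt antagonists and effectors, 4 were at lost regions. These were the co-receptor antagonist gene Kremen1, the targets Axin2 and Sp5, and Tcf7, which encodes the factor TCF1. Kremen1, Sp5 and Tcf7 each went from 4001 bp to 0 bp.

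Other pathways changed at few promoters in number, and their counts stand beside 16.6% lost and 3.66% gained over all marked and unmarked promoters. In the retinoic acid pathway, 3 of the 9 unmarked members were at gained regions (33.3%, 7.49–70.1). Among them were the carrier gene Crabp2 and the uptake receptor gene Stra6, each with 4001 bp covered at E13.5. Dhrs3, which encodes an enzyme that turns retinal back to retinol, went from 3713 bp to 0 bp. Notch3 and Notch4, 2 of the 6 unmarked Notch pathway genes (33.3%, 4.33–77.7), went from 0 bp to 1092 bp and 3600 bp. Both of these gained intervals lay above 3.66%. None of the 15 marked Notch pathway genes was at a lost region. Among Bmp and activin genes, 23 of 25 marked promoters were marked at both stages, with Bmp2 and Tgfb3 at lost regions. None of the 12 unmarked ones was at a gained region. Fgf18 was the lost member among 16 marked Fgf genes. Fgf1 and Fgfrl1, 2 of the 9 unmarked Fgf genes (22.2%, 2.81–60.0), were at gained regions, and this interval held 3.66%. None of 14 Hedgehog genes was at a lost or gained region.

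Among the pathway and family lists, steroidogenic genes and cell cycle inhibitors had the highest shares at lost regions after the ovary pathway. At 33.3% (4.33–77.7) and 30.0% (6.67–65.2), their intervals held the 16.6% of all marked promoters, as did that of the Sox and Gata genes at 22.2% (6.41–47.6). Of 10 marked inhibitors, 3 were lost, namely Cdkn1b, the imprinted gene Cdkn1c, which went from 3870 bp to 0 bp, and Btg2, which went from 4001 bp to 0 bp. Of 6 marked steroidogenic and adrenal genes, Nr5a1 and Srd5a1, a steroid reductase gene, were lost. Of 18 marked Sox and Gata genes and Fog cofactors, 4 were at lost regions, namely Gata4, Gata6, Sox5 and Zfpm2, which encodes the Gata cofactor FOG2. Gata6 and Zfpm2 went from 4001 bp to 0 bp, and Zfpm1, the gene of FOG1, from 0 bp to 750 bp. Of 23 marked mesonephric and epithelial genes, the simple keratin genes Krt8 and Krt18 were lost, both from 4001 bp.

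Regulators of other lineages kept the mark. All 27 marked promoters of the Iroquois, Six-Eya and Nkx homeobox genes, all 27 of proneural bHLH genes, 20 of 21 of LIM and Pax genes, 25 of 26 of forkhead genes and all 12 each of T-box and endothelial genes were marked at both stages. The lost LIM member was Lhx9, and Foxo6 lost cover inside a kept region. These shares of 0 or 1 lost promoter stood beside 16.6% over all marked promoters. The intervals of the T-box and endothelial genes (each 0–26.5) and of the LIM and Pax genes (0.120–23.8) held that share. Those of the Iroquois, Six-Eya and Nkx genes (0–12.8), proneural bHLH genes (0–12.8) and forkhead genes (0–13.2) lay below it. Of 37 marked neuronal genes, the channel genes Gabrb1 and Kcnd2 were lost, both from 4001 bp, and 5 of 17 unmarked ones were gained. Of these, the guidance genes Robo1, Robo2 and Slit3 went from 0 bp to 4001 bp. Among interstitial and stromal genes, Nr2f2, Des and Maf were at gained regions, with 4001 bp, 4001 bp and 1669 bp at E13.5, and Nr2f1 and Pdgfrb acquired 4001 bp inside kept regions. Myh11, a smooth muscle myosin gene, went from 3839 bp to 0 bp.

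Hox genes changed by growth of regions already present. Of 39 Hox promoters, 25 were marked at both stages, 11 acquired the mark inside kept regions and 0 were at lost or gained regions. The 11 were Hoxa2 to Hoxa6, Hoxb2 to Hoxb6 and Hoxd4, each from 0 bp to 4001 bp, and all are anterior or central members of their clusters. H3K27me3 covered 43.8% of the HoxA cluster at E10.5 and 100% at E13.5, 47.6% and 89.1% of HoxB, and 51.7% and 93.2% of HoxD. HoxC was at 79.3% and 78.3%, and its members Hoxc4 and Hoxc5 were uncovered at both stages, as was Hoxd3. In HoxA, 2 separate regions at E10.5 were replaced by a single region of 193821 bp. In the XY lineage, HoxA was at 46.9% in the progenitor list and 100% in the Sertoli list, and HoxC at 80.1% and 95.8%.

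**Figure D3:**
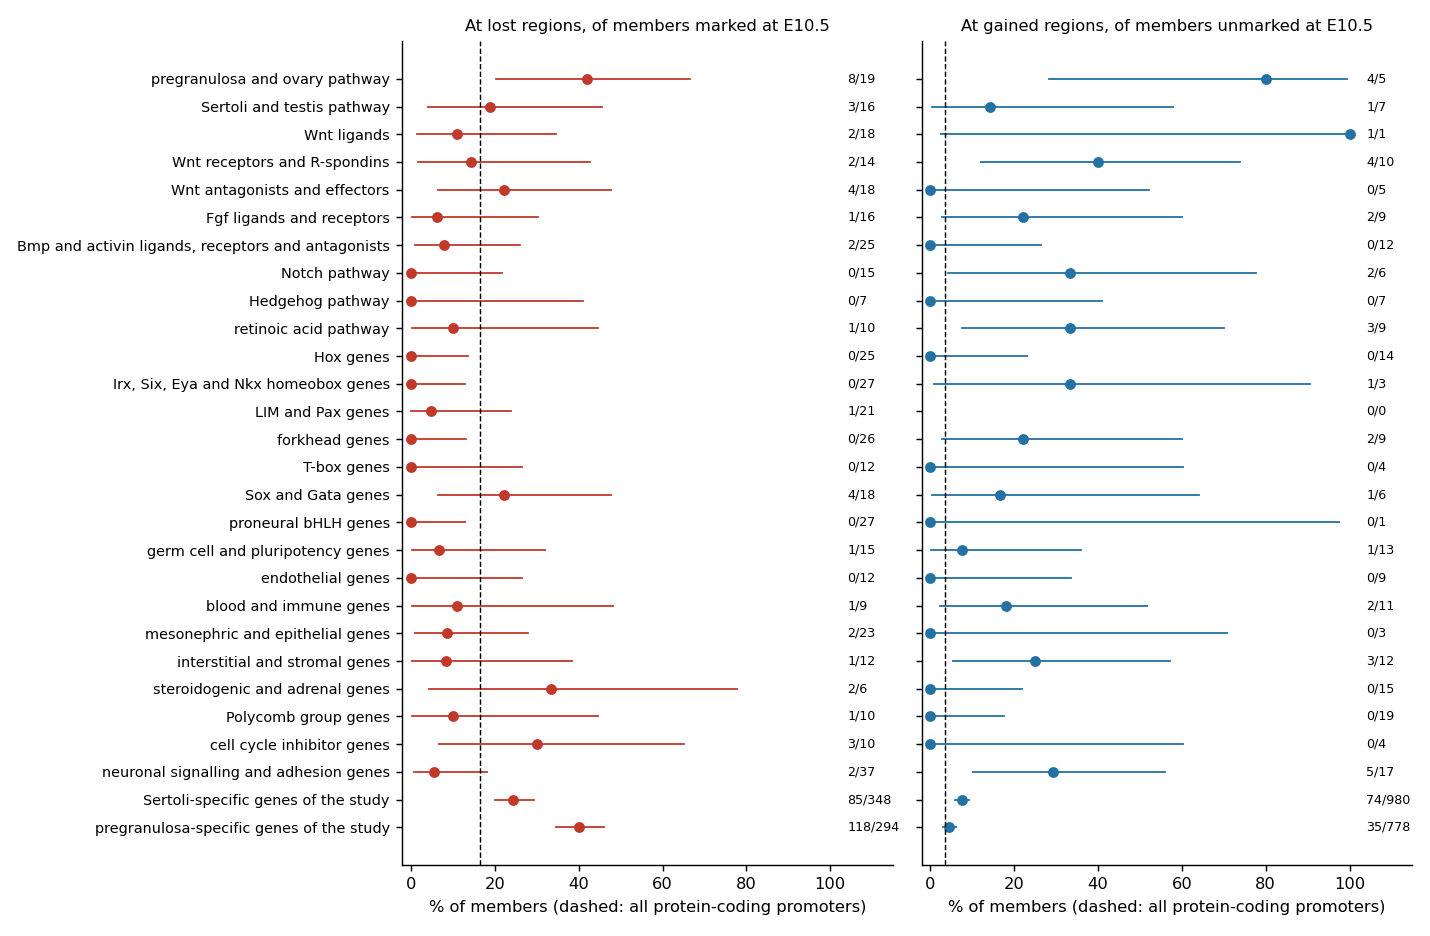
For each gene list, the share of its members marked at E10.5 that were at lost regions (left) and of its members unmarked at E10.5 that were at gained regions (right), with counts at the right of each panel, 95% exact binomial intervals as lines and the share over all protein-coding promoters as a dashed line (16.6% and 3.66%). The pregranulosa-specific genes and the ovary pathway lie to the right of the line on the left, and Hox, proneural bHLH, forkhead and T-box genes lie at 0.

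The genes at the widest changed regions were described next. Besides Gata4, Lhx9, Nr5a1, Wt1 and Gata6, the 12 genes with fully covered windows at the widest lost regions were E130114P18Rik, Epn3, Fam84b, Mtap1a, Rufy1, Spata20 and Syt7, in regions from 16980 bp to 25882 bp. The widest gained regions held Slc30a1, which encodes a zinc exporter, and 1700034H15Rik in a region of 78556 bp, Zfp608 in 61222 bp, and Dusp5, a phosphatase of the MAP kinase pathway, in 52742 bp. The others were Gpr39, Fam50b, Sncaip, Gm12830, Tgm5, Socs6, Pag1 and Nceh1, in regions from 34709 bp to 48300 bp. The lost region with the most promoters held 5 replication-dependent histone genes on chromosome 13, in 6329 bp, and reads of such near-identical genes can be placed on the wrong copy.

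Genes with sex-specific expression at E13.5, as an earlier expression study of sorted gonad cells gave them and the supplement of the study lists them, were counted in the same way. Of 1164 pregranulosa-specific genes, 1072 were measured as protein-coding autosomal genes. Among them, 294 were marked at E10.5, and 118 of these were at lost regions (40.1%, 34.5–46.0), beside 16.6% over all marked promoters. Of 1408 Sertoli-specific genes, 1328 were measured, 348 were marked and 85 were at lost regions (24.4%, 20.0–29.3). Both intervals lay above the share of all marked promoters, and that of the pregranulosa-specific genes lay above that of the Sertoli-specific genes. With the widest 75% of regions, however, 76 pregranulosa-specific and 77 Sertoli-specific genes were at lost regions. With lists of equal number these counts were 164 and 134. At gained regions were 74 of 980 unmarked Sertoli-specific promoters (7.55%, 5.98–9.39) and 35 of 778 unmarked pregranulosa-specific promoters (4.50%, 3.15–6.20), beside 3.66% of all unmarked promoters. These intervals overlapped, and that of the pregranulosa-specific genes held the share of all promoters. The named examples at the widest of these regions were Lhx9, Gata6 and Fam84b among lost pregranulosa-specific genes and Slc30a1, Zfp608 and Nceh1 among gained Sertoli-specific genes.

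The same genes were looked up in the Sertoli list. Of the 118 pregranulosa-specific promoters at lost regions, 49 (41.5%) had H3K27me3 in Sertoli cells, while 4 of the 85 Sertoli-specific ones (4.71%) did, beside 32.8% of all promoters at lost regions. Of promoters marked at both XX stages, 126 of 257 Sertoli-specific (49.0%) and 13 of 170 pregranulosa-specific ones (7.65%) had no H3K27me3 in Sertoli cells, beside 9.32% of all such promoters. The Sertoli-specific counts thus stood farther from those of all promoters than the pregranulosa-specific ones. Wnt4, Rspo1, Bmp2, Axin2, Lhx9 and Gng13, all at lost regions, had 4001 bp covered in Sertoli cells, whereas Kitl, Cdkn1b, Gata4, Nr5a1 and Wt1 had 0 bp. Conversely, Sox9, Dmrt1, Fgf9, Sox8, Sox10, Dhh, Pdgfa, Tesc and Inhbb were covered at both XX stages and had 0 bp in Sertoli cells. These were 9 of the 13 testis pathway genes marked at both XX stages. The others, Cyp26b1, Cbx2, Erbb4 and Gdnf, had 4001 bp, 3243 bp, 3198 bp and 1907 bp in Sertoli cells.

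H3K4me3, which the rule did not use, differed little between the stages. At promoters of lost regions, 94.2% (92.4–95.7) had H3K4me3 at E10.5 and 95.7% (94.0–97.0) at E13.5, and 756 of the 810 had it at both. The H3K27me3 went from these promoters while H3K4me3 was listed before and after, and 7 of them had H3K4me3 at E10.5 alone and 19 at E13.5 alone. At promoters of gained regions the shares were 69.7% (65.9–73.3) and 69.0% (65.2–72.7), and 165 of the 604 (27.3%) had H3K4me3 at neither stage, against 28 of the 810. Promoters marked at both stages had 93.6% and 92.5%, and promoters with H3K27me3 at neither stage 58.3% and 59.0%. Over all promoters the shares were 66.7% and 67.0%, and 31.5% had H3K4me3 at neither stage. The promoters at gained regions were thus near the shares of all promoters. Away from promoters, 42.0% (40.5–43.5) of the 4318 gained and 65.7% (62.6–68.7) of the 950 lost regions met an H3K4me3 region at E10.5.

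The XY lineage was compared at the same promoters. Of those at lost regions, 79.6% (76.7–82.4) were marked by H3K27me3 in the XY progenitor list, and 32.8% (29.6–36.2) in the Sertoli list. Of those at gained regions, 18.2% (15.2–21.5) had it in the XY progenitor list and 60.6% (56.6–64.5) in the Sertoli list, against 2.29% and 4.98% of promoters marked at neither XX stage. In 437 of 810 (54.0%) lost promoters the XY lists had the same order, marked in progenitor and unmarked in Sertoli cells. In 208 (25.7%) the mark was in both XY lists. Over all promoters these patterns were at 5.29% and 18.3%, and over those marked at both XX stages at 8.77% and 87.7%. In 280 of 604 (46.4%) gained promoters Sertoli cells had the mark and XY progenitor cells did not, and in 214 (35.4%) it was in neither XY list. Those patterns were at 5.87% and 70.5% of all promoters. Over whole gained regions, 12.9% (11.9–13.8) met an XY progenitor region and 51.5% (50.1–52.9) a Sertoli region. The XY progenitor list was called from 6470151 tags and the Sertoli list from 44446456, so depth and stage cannot be told apart there either.

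**Figure D4:**
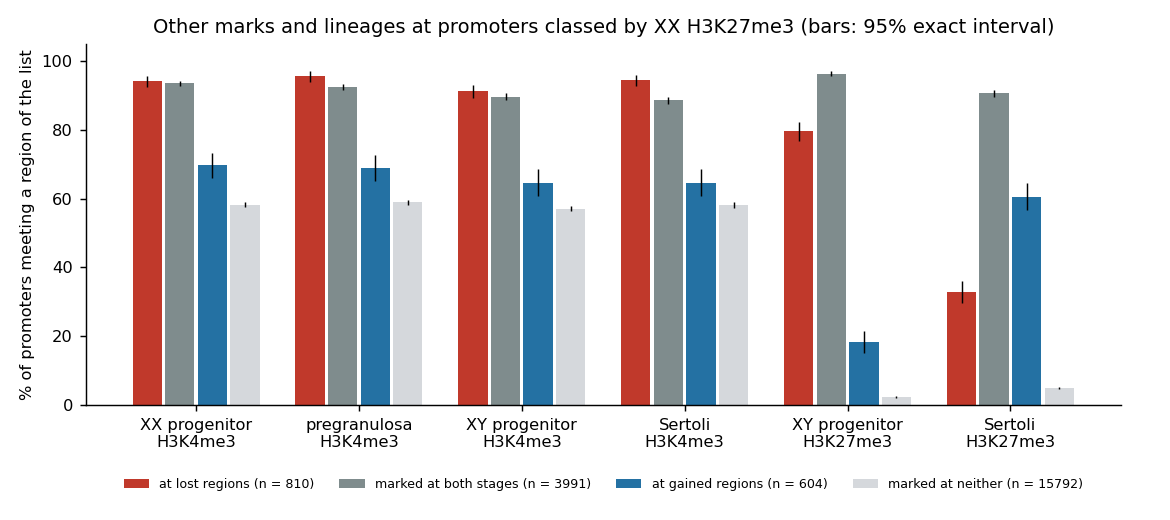
Share of promoters, grouped by H3K27me3 in the XX lineage, that met a region of each other list, with 95% exact binomial intervals. H3K4me3 is at similar shares at both stages in every group, H3K27me3 in Sertoli cells is at 32.8% of promoters at lost and 60.6% of those at gained regions, and at 90.7% of those marked at both stages.

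Genes that do not code for protein were at changed regions too. Of 374 long intergenic RNA promoters marked at E10.5, 53 (14.2%) were at lost regions, and of 158 marked microRNA genes 27 (17.1%) were. Of the unmarked ones, 38 long intergenic RNA promoters (4.43%) and 22 microRNA genes (1.68%) were at gained regions. Of 239 marked pseudogenes, 50 (20.9%) were at lost regions, and 75 of the unmarked ones (1.97%) at gained regions. Processed transcripts had 15.0% lost and 4.86% gained. Beside the 16.6% and 3.66% of protein-coding promoters, the gained shares of microRNA genes and pseudogenes were the lower ones.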

How the data were processed

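ChIP-seq for H3, H3K4me3 and H3K27me3 gave 24 samples. Per the labels and the study's methods, reads were placed on mm9 by Bowtie (the processing notes also name Trim Galore and SAMtools, with no role), and the authors ran HOMER in its histone style against H3, on single replicates by the methods, while headers and the series description show 2 replicates joined in each deposited file. Where headers exist, the H3K27me3 window was 5000 bp and peaks exceeded H3 by 4 times. In the deposited score column all peaks are equal, so that peaks could be used only as present or absent. Positions are 0-based starts in the files and count from 1 in the text.

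Overlapping peaks were joined, and regions and promoters were classed by 1 bp of overlap. The steps were tested on simulated data. Groups followed the labels. Genes could be named from the ovary and testis pathway lists, at most 3 lost and 3 gained per other list, and at the 12 widest lost and gained regions. Fzd4, Sox5 and genes that changed inside kept regions, Hox genes included, were named after their values were seen, as were cluster neighbours. The members and lists were chosen with earlier results of these data known. The authors' classes of sex-specific genes were left out and only gene names used. Older symbols were matched through RefSeq synonyms. Alternatives changed the overlap, joining distance, widths kept, window and gene set. Python 3.11.15, NumPy 2.4.6, SciPy 1.17.1 and matplotlib 3.10.9 were used. Some items are not reported here.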

Additional observations from a re-analysis of the deposited data

Results flagged for a closer look

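At 58 promoters at lost regions of the XX lineage the XY lists had the opposite order, with H3K27me3 in Sertoli and not in XY progenitor cells, and at 24 promoters at gained regions the mark was in XY progenitor and not in Sertoli cells. These are 7.16% of promoters at lost and 3.97% of those at gained regions, beside 5.87% and 5.29% of all promoters with those XY patterns, so the counts are near or below the share over all promoters. Dhrs3, Id3 and Fat4 were among the former and Slc30a1, Dusp4 and Cldn1 among the latter, named after the sets were seen. They are listed because the lineages had opposite orders there, and the difference was not tested, since each population has 1 pooled list. The XY progenitor list was called from 6470151 tags, the fewest of the 3 H3K27me3 lists with a known depth, and the part of depth was not tested.

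Chromosome X was outside the comparison and carried the mark in both XX populations, with 1503 regions over 61.6 Mb in XX progenitor cells and 1670 regions over 43.1 Mb in pregranulosa cells, beside 157 regions over 1.19 Mb in XY progenitor cells and 208 over 1.95 Mb in Sertoli cells. Of the 74001 peaks deposited for XX progenitor cells, 38307 lay on chromosomes 1 to 19.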

How the results depend on the processing

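No paired analysis was possible because each list pools both replicates, and for the same reason leaving out a replicate was not possible. Of 179 summary values over 10 other settings, 150 stayed within 1.5 times the main count or within its interval. With the longer list cut to the number of the shorter, lost and gained regions were 2647 and 2807 (33.9% and 36.0% of the lists), promoters at lost and gained regions 1363 and 362, Sertoli-specific genes there 134 and 42, and lost promoters had H3K27me3 in XY progenitor cells in 84.2% and in Sertoli cells in 47.8%. With the widest 75% of regions, 22.4% of E10.5 regions were lost, and 76 pregranulosa-specific and 77 Sertoli-specific genes were at lost regions. In that setting gained promoters had H3K4me3 in 79.3% at E10.5 and 78.5% at E13.5 and H3K27me3 in XY progenitor cells in 27.9%. Joining within 5 kb gave 41.9% gained, and including chromosome X gave 26.4% lost and 39.0% gained. Over every gene of the annotation, 966 promoters were at gained regions, with H3K4me3 at 59.6% and 56.7%, and H3K4me3 was at 90.8% and 91.6% of lost promoters. Any transcript start gave 95.8% for lost promoters with H3K4me3 at E10.5. Requiring 2000 bp of cover, in all lists, gave 78.9% and 81.6% of lost and 52.6% and 46.4% of gained promoters with H3K4me3, and 28.8% of lost promoters with H3K27me3 in Sertoli cells. The change of cover at Runx1 was -652 bp over all its starts. Of 47 ovary and testis pathway genes, 11 changed class in some setting, Amh in 4 of 9 settings and Axin2, Figla, Esr2, Inhbb and Cbx2 in 2. Except at Runx1, the causes were not tested, and the unknown depth of the pregranulosa list limits the counts of lost and gained regions.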

Other observations

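Further members of the lists had these values. Among Sertoli-specific genes at lost regions, Chchd10 and Pde8a went from 4001 bp to 0 bp of the promoter window in XX cells and had 0 bp in Sertoli cells, and Tnni3, a troponin gene, went from 4001 bp to 0 bp and had 1129 bp. Of 10 marked Polycomb group genes, Phc2, a subunit gene of PRC1, went from 3133 bp to 0 bp, and Rybp lost 2335 bp inside a kept region. Of 15 marked germ cell and pluripotency genes, 14 were marked at both stages, while Dppa3 went from 4001 bp to 0 bp. That lost share was 6.67% (0.169–31.9), beside 16.6% over all promoters marked at E10.5. Its interval held the share of all marked promoters, as did that of the Polycomb group genes (0.253–44.5). Lin28a, which encodes a repressor of let-7 microRNAs, went from 0 bp to 4001 bp, and so did the T cell gene Cd3e and the homeobox gene Six4. Foxp1 went from 0 bp to 4001 bp in a region of 24269 bp and Foxp4 from 0 bp to 2853 bp.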
